A study of Mus musculus with 8 samples.

Results

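The genes described here are the protein-coding Hox genes of the mouse, which lie in 4 clusters on 4 chromosomes. They were found by mapping the Ensembl gene IDs of the count tables to GENCODE symbols and keeping Hoxa, Hoxb, Hoxc or Hoxd followed by digits only. This gave 39 genes of 54446 counted: 11 of the Hoxa cluster on chromosome 6, 10 of the Hoxb cluster on chr11:96194316-96368256, 9 of the Hoxc cluster on chr15:102921103-103036852 and 9 of the Hoxd cluster on chr2:74668310-74765142 (mm10). Nuclear RNA was sequenced from embryonic stem cells of C57BL/6 mice. The groups were Mettl14 cKO (conditional knockout), Mettl14 control, Mettl3 cKO and Mettl3 control, with 2 libraries each. All were grown in medium with serum, the cytokine LIF, CHIR99021 (an inhibitor of GSK3) and PD0325901 (an inhibitor of MEK), a mixture that holds stem cells undifferentiated. The labels do not state how the genes were deleted, which exons were removed, or whether replicates were grown as separate cultures. The p-values therefore rest on the spread between these libraries, which may be technical.

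Hox genes encode homeodomain transcription factors that tell cells of the embryo where they lie between head and tail. Within a cluster the genes point the same way and are numbered by paralog group from the 3′ end, and in embryos they are switched on in that order, with low numbers for the hindbrain and neck and high numbers for the lower trunk, tail, limbs and genitals. In embryonic stem cells the clusters are known to be held nearly silent by Polycomb complexes, and retinoic acid is a classic signal that opens them. METTL3 and METTL14 together form the enzyme that writes N6-methyladenosine on RNA, and the series title sets METTL14 on chromatin apart from that mark.

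Library totals ran from 17235889 to 20086128 counts. Values are given as counts, or as CPM, counts scaled to the TMM-adjusted library size. Mettl14 RNA measured 27.8 and 30.2 CPM in Mettl14 cKO libraries, against 58.3 and 55.0 CPM in Mettl14 control libraries. Mettl3 RNA measured 19.8 and 18.6 CPM in Mettl3 cKO libraries, against 37.9 and 36.1 CPM in Mettl3 control libraries. Each targeted gene was thus lower in its knockout (log2 fold change -0.96 ± 0.07 for Mettl14 and -0.95 ± 0.08 for Mettl3, SE) but still counted, and Mettl14 in the Mettl3 line, at 26.7 to 30.1 CPM, lay at the level of Mettl14 cKO. The markers of pluripotent stem cells were counted in all groups. So were those of fibroblasts, a cell type the labels do not name. Their 24 genes summed to 2855 and 2863 CPM in Mettl14 cKO and 1318 and 1299 CPM in Mettl14 control, and to 11044 and 10947 CPM in Mettl3 cKO and 9531 and 9246 CPM in Mettl3 control. In bulk RNA, fewer cells of a type and less RNA per cell cannot be told apart.

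Some cluster sequences are shown here because the results below return to them. The Hox clusters also hold microRNA genes, and Mir196a-1 (chr11:96265164-96265265, + strand), which lies between Hoxb13 and Hoxb9, was the only one of them with enough counts to be tested. The mature microRNAs of the miR-196 family share 1 seed, bases 2 to 8, shown in capitals (RefSeq, GRCm38.p6):
mmu-miR-196a-5p: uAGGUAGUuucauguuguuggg
mmu-miR-196b-5p: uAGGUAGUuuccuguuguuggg
In mouse embryos miR-196 is known to cut the Hoxb8 mRNA. Among 63 annotated Hox transcripts searched, the site with that near-complete match lay in Hoxb8, at bases 2208 to 2229 of 2635. It pairs with miR-196a over 21 bases and forms a G:U pair at the remaining 1 of 22. That G:U pair lies within the stretch that faces the seed, shown in capitals:
Hoxb8 site: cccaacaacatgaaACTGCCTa
A promoter window of Hoxa7 and one of Hoxd13 are shown because these genes changed in opposite directions in Mettl14 cKO cells. Each run covers 250 bases before to 50 after a RefSeq start (GRCm38.p6), with every CG, the letters CpG methylation and CpG islands rest on, in capitals.
Hoxa7, chr6:52218524-52218823, - strand: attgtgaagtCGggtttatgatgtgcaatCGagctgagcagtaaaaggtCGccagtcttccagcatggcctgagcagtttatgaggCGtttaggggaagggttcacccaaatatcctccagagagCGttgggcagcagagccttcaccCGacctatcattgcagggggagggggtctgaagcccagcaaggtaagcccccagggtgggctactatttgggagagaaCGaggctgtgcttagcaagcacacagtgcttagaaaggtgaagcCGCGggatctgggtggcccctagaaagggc
Hoxd13, chr2:74667975-74668274, + strand: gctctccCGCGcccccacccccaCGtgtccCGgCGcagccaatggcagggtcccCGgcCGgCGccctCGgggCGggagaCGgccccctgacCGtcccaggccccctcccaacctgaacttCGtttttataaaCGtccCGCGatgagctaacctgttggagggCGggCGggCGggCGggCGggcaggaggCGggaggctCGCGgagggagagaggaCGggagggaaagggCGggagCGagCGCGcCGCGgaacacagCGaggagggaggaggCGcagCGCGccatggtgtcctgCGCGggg
The Hoxa7 window held 9 CG and the Hoxd13 window 37. These are not like for like. The Hoxa7 window lies inside the counted gene, whose 5′ end is at 52221854, and so belongs to an inner RefSeq start. The Hoxd13 window lies just before the start of its counted gene, at 74668310. CG reads the same on both strands. Over the 24 promoters that RefSeq gives for 22 of the Hox genes, the number of CG ran from 4 to 45 with a median of 14.5, against a median of 7 over all 32851 promoters of the same length, 94.6% of which held a CG and 34.6% of which reached 14.5. These counts describe the windows and say nothing on which promoters were methylated or bound.

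Hox RNA was scarce in all groups. The 39 genes together measured 44.9 and 48.2 CPM in Mettl14 cKO, 46.4 and 47.7 CPM in Mettl14 control, 81.0 and 82.6 CPM in Mettl3 cKO and 70.2 and 68.8 CPM in Mettl3 control. The sums of the Mettl14 groups overlapped, and those of the Mettl3 groups did not. Hoxb9, which patterns ribs and lower trunk, had the highest level in each group. It measured 6.46 ± 0.73 CPM in Mettl14 cKO, 6.85 ± 0.45 CPM in Mettl14 control, 13.7 ± 0.60 CPM in Mettl3 cKO and 11.5 ± 0.13 CPM in Mettl3 control (SD, n = 2 each). It supplied 13.9% to 16.8% of the Hox sum. The lowest was Hoxd4, at 0 counts in all 8 libraries, where a count of 3 per library is the limit that 0 allows. Since 52.3% of the Hoxd4 exon bases also belong to Hoxd3 or Gm28230, its reads may have been set aside as ambiguous.

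Per kb of exon, which allows genes to be compared, levels were higher toward high paralog numbers, in broad outline. Each average is the summed CPM of a set over its summed exon length. Groups 1 to 4 averaged 0.188 CPM per kb in Mettl14 cKO, 0.198 in Mettl14 control, 0.238 in Mettl3 cKO and 0.251 in Mettl3 control. Groups 5 to 8 averaged 0.366 in Mettl14 cKO, 0.460 in Mettl14 control, 0.775 in Mettl3 cKO and 0.685 in Mettl3 control. Groups 9 to 13 averaged 0.735 in Mettl14 cKO, 0.680 in Mettl14 control, 1.29 in Mettl3 cKO and 1.04 in Mettl3 control. So the genes of groups 9 to 13 were the most abundant of these 3 sets in each group of libraries. The largest shares of exon bases that also belong to other genes were in groups 1 to 4. They were 62.8% in Hoxd3, 52.9% in Hoxb3 and 52.3% in Hoxd4, followed by 35.0% in Hoxa11. The part of reads lost to such overlap in the low levels of groups 1 to 4 was not tested. As a background level, 1413 odorant and vomeronasal receptor genes, which stem cells do not use, had a 95th percentile of 0.0985 CPM per kb in Mettl14 cKO, 0.0611 in Mettl14 control, 0.121 in Mettl3 cKO and 0.195 in Mettl3 control. Of the 39 Hox genes, 33 lay above it in Mettl14 cKO, 32 in Mettl14 control, 36 in Mettl3 cKO and 31 in Mettl3 control. These receptor genes also summed to different totals, 178 CPM in Mettl14 cKO and 113 CPM in Mettl14 control, 233 CPM in Mettl3 cKO and 404 CPM in Mettl3 control. Their part in the lowest Hox values was not tested.

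**Figure D1:**
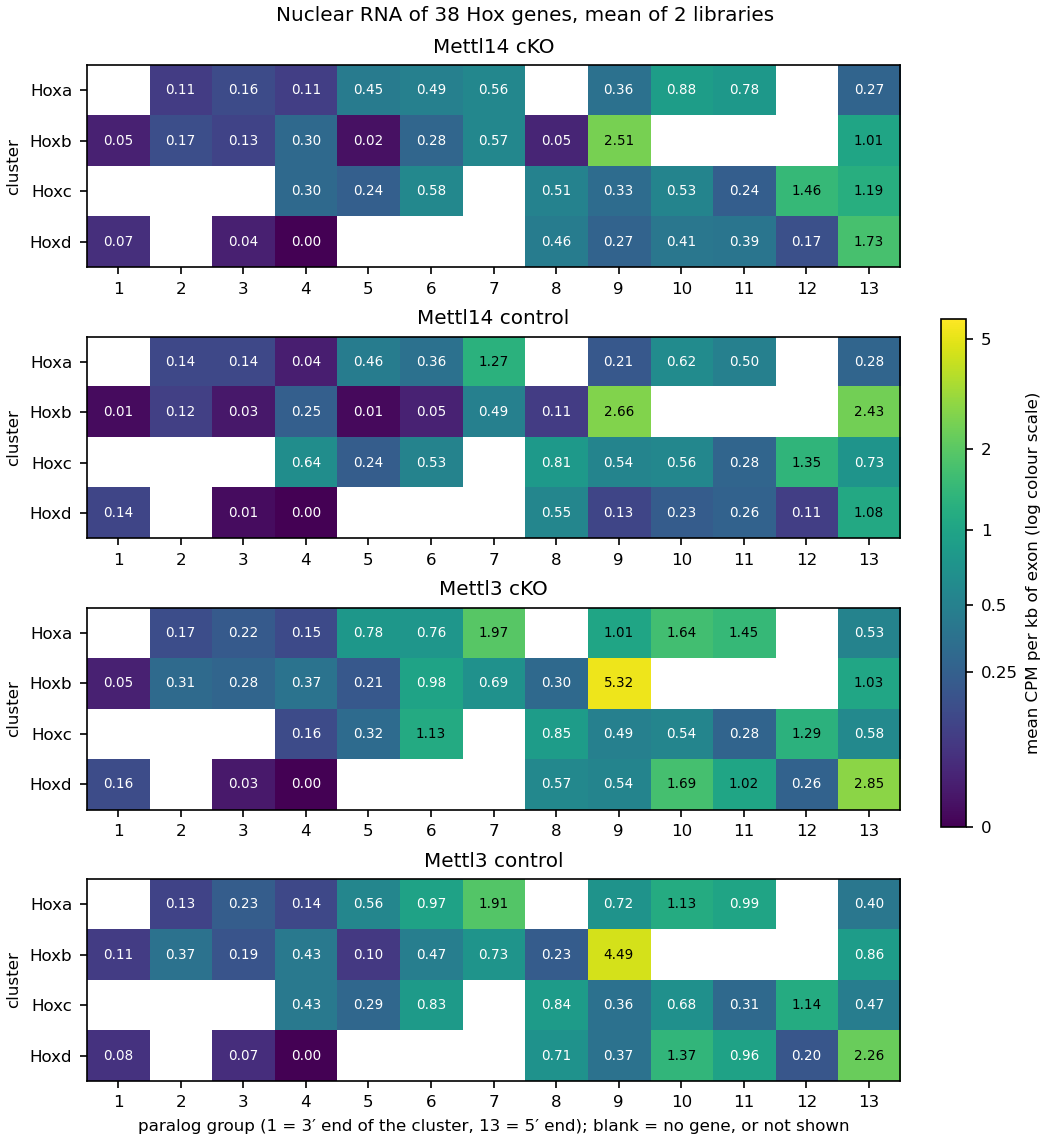
Mean level of 38 of the 39 Hox genes in CPM per kb of exon (colour on a log scale, number printed in each cell), by cluster (rows) and paralog group (columns), with 1 panel for each group of 2 libraries and blanks where the mouse has no gene or none is shown. Hoxb9 is the brightest cell in every panel.

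A minimum count left 33 of the 39 genes to test among 21782. Hoxa2, Hoxa4, Hoxb1, Hoxd1, Hoxd3 and Hoxd4 were not tested, and none of them had more than 9 counts in a library. Of the 33, only 16 reached the minimum in all 4 groups, and 10 reached it only in the Mettl3 line, so a count over the tested genes leans toward those that are higher there. A gene was called where edgeR's quasi-likelihood test gave a Benjamini-Hochberg adjusted p under 0.05 over all genes tested. The 2 groups compared did not overlap in CPM for 18 of the 33 in the Mettl14 line and 17 in the Mettl3 line. Between the 2 controls this was so for 27. How many of all genes separate in this way was not counted, so a lack of overlap is given below as description only.

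In Mettl14 cKO cells 3 Hox genes fell and 5 rose. That is 9.09% and 15.2% of the 33 tested, against 22.4% and 18.0% of all 21782 genes, and against 7.20% and 12.2% of the 12268 genes within the range of abundance of the Hox genes. The shares thus lay near those of genes as scarce as they are. The median log2 fold change of the Hox genes was 0.14, against 0.03 over all genes and 0.20 over those of like abundance. The genes that fell belong to 3 clusters: Hoxa had 1 higher and 1 lower of 9 tested, Hoxb 2 higher and 1 lower of 9, Hoxc 1 higher and 1 lower of 9, and Hoxd 1 higher of 6. With DESeq2, 1 Hox gene rose, Hoxb6, and 2 fell, Hoxb13 and Hoxa7, while Hoxc4 (adjusted p = 0.139), Hoxb3 (0.0993), Hoxd13 (0.0905), Hoxa9 (0.137) and Hoxc13 (0.242) were not past the threshold. Without the low-count filter the edgeR calls of Hoxa9 (adjusted p = 0.0783) and Hoxc13 (0.0760) ended, and that of Hoxc13 also with RLE scaling (0.0504).

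The summed Hoxd cluster was higher in Mettl14 cKO, while the Hoxb and Hoxc sums were lower and the Hoxa sums overlapped. The 9 Hoxd genes summed to 9.10 and 9.40 CPM in Mettl14 cKO libraries, against 6.53 and 6.72 CPM in Mettl14 control libraries. Hoxb summed to 12.2 and 12.5 CPM in Mettl14 cKO libraries, against 15.4 and 13.8 CPM in Mettl14 control libraries. Hoxc summed to 10.9 and 11.3 CPM in Mettl14 cKO libraries, against 11.5 and 12.7 CPM in Mettl14 control libraries. These Hoxd, Hoxb and Hoxc sums did not overlap. Of the 6 tested Hoxd genes, 5 had a fold change above 0, and Hoxd13 was the 1 that passed the test. The median of the 6 was 0.62, against 0.20 over genes of like abundance. Hoxd13 alone measured 4.28 CPM in Mettl14 cKO and 2.69 CPM in Mettl14 control, as part of the Hoxd sums. In the Mettl3 line the Hoxd sum was 17.1 and 19.4 CPM in cKO libraries, against 15.7 and 16.0 CPM in control libraries. There 5 of the 6 were above 0 with a median of 0.32, against -0.10 over genes of like abundance. Other clusters were higher in Mettl3 cKO too. Hoxa summed to 27.2 and 28.5 CPM in Mettl3 cKO libraries, against 23.0 and 21.8 CPM in Mettl3 control libraries, with a median of 0.38. Hoxb summed to 22.8 and 24.5 CPM in Mettl3 cKO libraries, against 19.0 and 20.5 CPM in Mettl3 control libraries, with a median of 0.25. The Hoxc sums overlapped.

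Hoxb13 (ENSMUSG00000049604.3, chr11:96194316-96197447, + strand), the last gene of its cluster and known for tail growth and the prostate, had the strongest support. It had 30 and 54 counts in Mettl14 cKO libraries, against 88 and 81 in Mettl14 control libraries. In the Mettl3 line it had 42 and 43 counts in cKO libraries, against 37 and 39 in control libraries. Both Mettl14 cKO libraries thus lay below both of their controls, at about the level of the Mettl3 line. The means were 2.23 ± 0.79 CPM in Mettl14 cKO and 5.36 ± 0.39 CPM in Mettl14 control (SD, n = 2 each), and the log2 fold change was -1.25 ± 0.23 (SE, adjusted p = 1.7e-06, edgeR).

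Hoxa7 (ENSMUSG00000038236.8, chr6:52214491-52221854, - strand), a gene of the thoracic region, had 30 and 30 counts in Mettl14 cKO libraries, against 49 and 66 in Mettl14 control libraries. It had 96 and 117 counts in Mettl3 cKO libraries, against 127 and 94 in Mettl3 control libraries. The Mettl14 groups were apart and the Mettl3 groups overlapped. Hoxa7 fell by 1.17 ± 0.25 on the log2 scale in Mettl14 cKO (SE, adjusted p = 3.9e-05, edgeR), with means of 1.61 ± 0.09 CPM in Mettl14 cKO and 3.64 ± 0.71 CPM in Mettl14 control. Of its exon bases, 20.4% also lie under Hoxaas3, an antisense RNA, which had at most 10 counts in any library. The calls of Hoxb13 and Hoxa7 held under each of the 15 alternatives run for them, leaving out each library included. In these cells the summed fibroblast markers were higher, and the pluripotent stem cell markers were lower, with 17 of 20 lower and 1 higher. Their part in the fall of Hoxb13 and Hoxa7 was not tested.

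Hoxc4 (chr15:103018934-103036852, + strand), which acts at the level of the neck, was the third to fall. It had 14 and 15 counts in Mettl14 cKO libraries, against 19 and 33 in Mettl14 control libraries. In the Mettl3 line it had 10 and 5 counts in cKO libraries, against 25 and 19 in control libraries. In each line both cKO libraries were below both controls. The log2 fold change in Mettl14 cKO was -1.07 ± 0.40 (SE, adjusted p = 0.0242, edgeR). The call ended without Mettl14 cKO replicate 1 (-1.08, adjusted p = 0.0934), Mettl14 cKO replicate 2 (-1.08, adjusted p = 0.0993) or Mettl14 control replicate 2 (-0.64, adjusted p = 0.408).

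Of the genes that rose, Hoxb6 and Hoxb3 had the fewest counts. Both reached the minimum count only in the Mettl3 line, so they were tested here through libraries outside this comparison. Hoxb6 (chr11:96292476-96301569, + strand), a gene of the trunk, had 7 and 14 counts in Mettl14 cKO libraries, against 1 and 2 in Mettl14 control libraries. In the Mettl3 line it had 30 and 42 counts in cKO libraries, against 12 and 25 in control libraries. The groups did not overlap in either line. In the Mettl14 line the ratio of scaled counts was 5.93, with a 95% interval of 1.77 to 31.0 that covers counting error only, and the fitted log2 fold change was 2.48 ± 0.78 (SE, adjusted p = 0.0061, edgeR). The call ended without Mettl14 cKO replicate 2 (1.95, adjusted p = 0.125) or Mettl14 control replicate 1 (2.09, adjusted p = 0.0740).

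Hoxb3 (chr11:96323326-96347930, + strand), which acts in the hindbrain and pharyngeal arches, had 14 and 6 counts in Mettl14 cKO libraries, against 3 and 1 in Mettl14 control libraries. It had 18 and 27 counts in Mettl3 cKO libraries, against 16 and 16 in Mettl3 control libraries. Its ratio in the Mettl14 line was 4.23 (1.42 to 17.03), and its fitted log2 fold change was 2.03 ± 0.77 (SE, adjusted p = 0.0246, edgeR). Its exons share 52.9% of their bases with the antisense gene Hoxb3os, which had 9 and 7 counts in Mettl14 cKO libraries, against 3 and 0 in Mettl14 control libraries. The call ended without Mettl14 cKO replicate 1 (1.25, adjusted p = 0.377) or Mettl14 control replicate 2 (1.46, adjusted p = 0.210).

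The other genes that rose were of groups 9 and 13 and had more counts. Hoxd13 (chr2:74668310-74671599, + strand), the gene of digits and genitals at the end of its cluster, had 73 and 87 counts in Mettl14 cKO libraries, against 30 and 55 in Mettl14 control libraries. In the Mettl3 line it had 120 and 146 counts in cKO libraries, against 126 and 99 in control libraries. Its means in the Mettl14 line were 4.28 ± 0.30 CPM in cKO and 2.69 ± 1.08 CPM in control, with a log2 fold change of 0.67 ± 0.22 (SE, adjusted p = 0.0097, edgeR). The Mettl14 groups did not overlap, but the control replicates lay far apart. Without Mettl14 control replicate 1 the change was 0.30 (adjusted p = 0.429), without Mettl14 control replicate 2 it was 1.16 (adjusted p = 0.00057), and without Mettl14 cKO replicate 2 it was 0.58 (adjusted p = 0.0831).

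Hoxa9 (chr6:52223100-52231089, - strand), known for its role in blood progenitors and leukaemia, had 32 and 43 counts in Mettl14 cKO libraries, against 17 and 20 in Mettl14 control libraries. Its change was 0.77 ± 0.31 on the log2 scale (SE, adjusted p = 0.0343, edgeR), and the call ended without Mettl14 cKO replicate 2 (0.59, adjusted p = 0.269), Mettl14 control replicate 1 (0.66, adjusted p = 0.205) or Mettl14 control replicate 2 (0.89, adjusted p = 0.0816). Hoxc13 (chr15:102921103-102928814, + strand), the gene of hair and nails, had 45 and 65 counts in Mettl14 cKO libraries, against 23 and 34 in Mettl14 control libraries. Its change was 0.70 ± 0.29 (SE, adjusted p = 0.0406, edgeR), and the call ended without Mettl14 cKO replicate 2 (0.46, adjusted p = 0.393) or Mettl14 control replicate 1 (0.45, adjusted p = 0.371). In both genes the cKO libraries lay above the control libraries. The summed fibroblast markers were also higher in Mettl14 cKO, with 18 of 22 tested higher and 1 lower. The summed odorant and vomeronasal receptor genes were higher too, at 178 CPM in Mettl14 cKO and 113 CPM in Mettl14 control. Of 210 tested, 19 were called higher and 2 lower, with a median log2 fold change of 0.91. That is 9.05% and 0.95%, against 12.2% and 7.20% of genes of like abundance and 18.0% and 22.4% of all genes. In Mettl14 control the levels of Hoxb6 and Hoxb3, 0.0483 and 0.0300 CPM per kb, lay under the 95th percentile of these receptors, 0.0611. The part of either set in the rise of these 5 Hox genes was not tested.

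**Figure D2:**
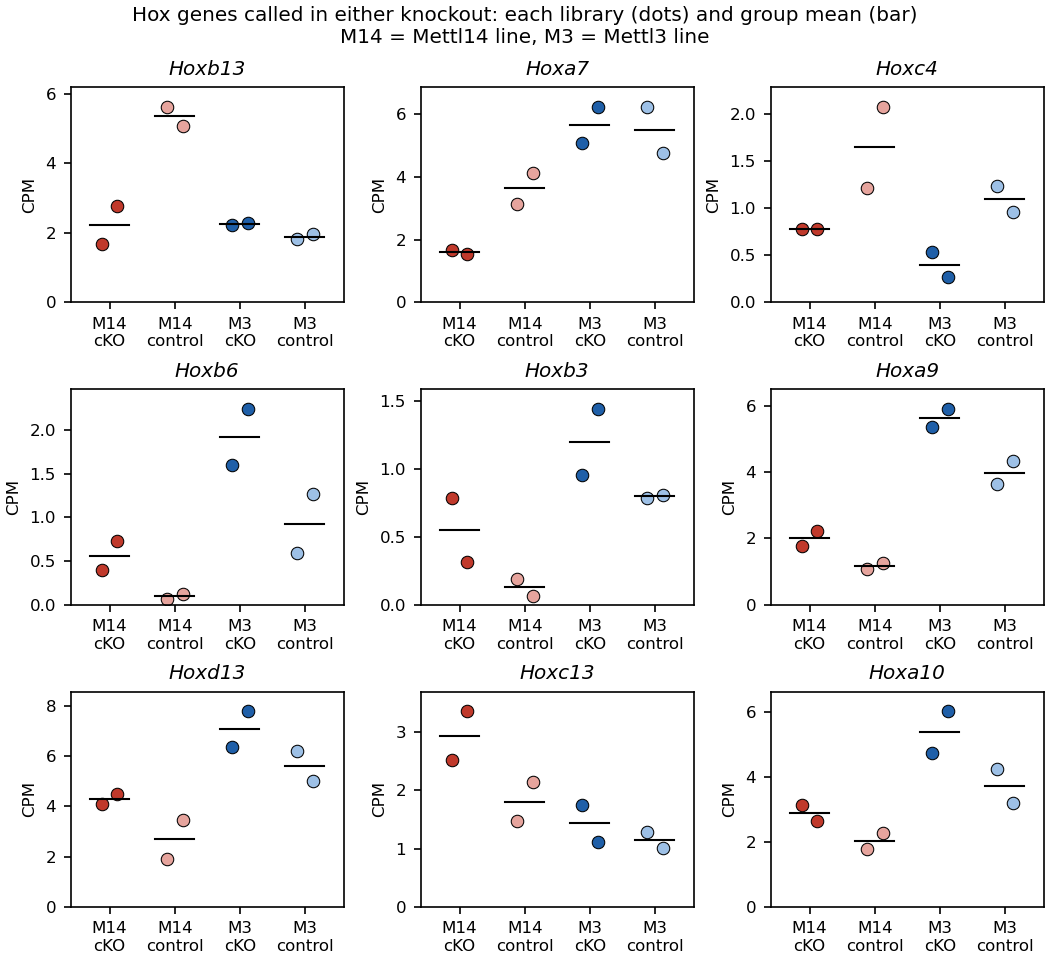
CPM of the 9 Hox genes called in either knockout, with each library as a dot and the group mean as a bar, cKO left of its control in each line and a linear axis from 0. Hoxb13 and Hoxa7 are low in both Mettl14 cKO libraries against their controls, and Hoxc4 is low in the cKO libraries of both lines.

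Among genes that were not called in Mettl14 cKO, the abundant Hoxb9 had 125 and 115 counts in Mettl14 cKO libraries, against 112 and 104 in Mettl14 control libraries. After scaling its log2 fold change was -0.09 ± 0.15 (SE). Hoxc8, a gene of thoracic and brachial motor neurons, had 30 and 24 counts in Mettl14 cKO libraries, against 40 and 32 in Mettl14 control libraries, and missed the threshold (-0.65 ± 0.31, SE, adjusted p = 0.0792, edgeR). Hoxa10 and Hoxa11, which pattern the uterus and limbs beside Hoxa9, also missed it, with changes of 0.50 ± 0.26 (adjusted p = 0.113, edgeR) and 0.65 ± 0.33 (adjusted p = 0.110, edgeR). Hoxb8, which carries the miR-196 site, was scarce, with 4 and 1 counts in Mettl14 cKO libraries, against 4 and 5 in Mettl14 control libraries.

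Hoxd9, Hoxd10 and Hoxd11 each had both Mettl14 cKO libraries above both controls in CPM and were not called. Hoxd11 had 31 and 30 counts in Mettl14 cKO libraries, against 21 and 14 in Mettl14 control libraries (0.56 ± 0.34, SE, adjusted p = 0.187, edgeR). Hoxd10 had 11 and 17 counts in Mettl14 cKO libraries, against 6 and 7 in Mettl14 control libraries (0.85 ± 0.50, SE, adjusted p = 0.171, edgeR). Hoxd9 had 12 and 9 counts in Mettl14 cKO libraries, against 6 and 3 in Mettl14 control libraries (0.97 ± 0.63, SE, adjusted p = 0.232, edgeR).

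Some genes were called in none of the comparisons, and the most abundant of these in each cluster follow, whatever their level. Hoxa3, needed for thymus and parathyroid, measured 0.94 ± 0.06 CPM in Mettl14 cKO and 0.86 ± 0.03 CPM in Mettl14 control. Hoxa5, needed in the lung, measured 0.84 ± 0.64 CPM in Mettl14 cKO and 0.86 ± 0.03 CPM in Mettl14 control. The cKO replicates of Hoxa5 were far apart, at 0.391 and 1.29 CPM. Hoxc6 measured 1.39 ± 0.08 CPM in Mettl14 cKO and 1.27 ± 0.20 CPM in Mettl14 control, and Hoxc12 1.50 ± 0.07 CPM in Mettl14 cKO and 1.39 ± 0.25 CPM in Mettl14 control. Hoxb7 measured 0.88 ± 0.37 CPM in Mettl14 cKO and 0.76 ± 0.17 CPM in Mettl14 control, and Hoxb4 0.78 ± 0.16 CPM in Mettl14 cKO and 0.64 ± 0.28 CPM in Mettl14 control. Hoxd8 measured 1.26 ± 0.03 CPM in Mettl14 cKO and 1.52 ± 0.20 CPM in Mettl14 control, and Hoxd12 0.43 ± 0.02 CPM in Mettl14 cKO and 0.29 ± 0.23 CPM in Mettl14 control (SD, n = 2 in each of these). None of these differences passed the test.

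In Mettl3 cKO cells 2 Hox genes rose and 1 fell. That is 6.06% and 3.03% of the 33 tested, against 15.1% and 5.78% of all 21782 genes, and against 3.15% and 4.42% of the genes of like abundance. With RLE scaling the Hox calls were 1 higher and 1 lower and with upper-quartile scaling 0 higher and 1 lower. Over all genes the split also moved with scaling, to 1293 higher and 2771 lower with upper-quartile scaling, against 3292 and 1260. DESeq2 called none of the Hox genes (adjusted p = 0.369 for Hoxb6, 0.364 for Hoxa10 and 0.152 for Hoxc4), and 6 of them had an unadjusted p under 0.05 in edgeR. The median log2 fold change of the Hox genes was 0.25, against 0.03 over all genes and -0.10 over genes of like abundance.

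Hoxb6, with the counts given above, rose by 1.05 ± 0.38 on the log2 scale (SE, adjusted p = 0.0337, edgeR), with means of 1.92 ± 0.46 CPM in Mettl3 cKO and 0.93 ± 0.48 CPM in Mettl3 control. The call ended without Mettl3 cKO replicate 2 (0.82, adjusted p = 0.265) or Mettl3 control replicate 1 (0.63, adjusted p = 0.349), and without Mettl3 control replicate 2 the change was 1.72. Hoxa10 (chr6:52231197-52240854, - strand) had 89 and 113 counts in Mettl3 cKO libraries, against 86 and 63 in Mettl3 control libraries, and rose by 0.53 ± 0.20 (SE, adjusted p = 0.0387, edgeR). Its cKO libraries lay above the controls by a small margin, and the call ended without Mettl3 cKO replicate 2 (0.39, adjusted p = 0.312) or Mettl3 control replicate 2 (0.38, adjusted p = 0.282). Hoxc4 fell by 1.44 ± 0.47 (SE, adjusted p = 0.0179, edgeR), with 0.40 ± 0.19 CPM in Mettl3 cKO and 1.10 ± 0.19 CPM in Mettl3 control, and the call ended without Mettl3 cKO replicate 2 (-0.99, adjusted p = 0.235) or Mettl3 control replicate 1 (-1.22, adjusted p = 0.133). Fibroblast markers were higher too in Mettl3 cKO, with 12 of 22 tested higher and 1 lower, and their part in these changes was not tested.

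Hoxa9, the neighbour of Hoxa10, had 101 and 111 counts in Mettl3 cKO libraries, against 74 and 86 in Mettl3 control libraries. The libraries did not overlap, yet the change of 0.50 ± 0.19 just missed the threshold (SE, adjusted p = 0.0511, edgeR). Hoxb9 had 250 and 265 counts in Mettl3 cKO libraries, against 233 and 230 in Mettl3 control libraries, and was not called (0.25 ± 0.12, SE, adjusted p = 0.122, edgeR). Hoxa7 and Hoxb13, which fell in Mettl14 cKO, had log2 fold changes of 0.04 ± 0.18 and 0.25 ± 0.26 (SE) in Mettl3 cKO. Hoxc4 lower and Hoxb6 higher were the edgeR calls that both knockouts had in common, each against its own control. DESeq2 called neither gene in Mettl3 cKO and did not call Hoxc4 in Mettl14 cKO. Each of these edgeR calls ended on leaving out 1 library, as given above. The share of all genes called alike in both knockouts was not counted. Hoxc4 is 1 of the 3 genes that fell in Mettl14 cKO and the 1 that fell in Mettl3 cKO, and Hoxb6 is 1 of the 5 that rose in Mettl14 cKO and 1 of the 2 that rose in Mettl3 cKO.

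Other Hox genes were not called in Mettl3 cKO. Hoxd13, with the counts given above, lay higher in both cKO libraries (0.34 ± 0.17, SE, adjusted p = 0.163, edgeR). Hoxd10 had 55 and 60 counts in Mettl3 cKO libraries, against 54 and 46 in Mettl3 control libraries (0.30 ± 0.26, SE), and Hoxd11 65 and 96 in Mettl3 cKO libraries, against 70 and 92 in Mettl3 control libraries (0.08 ± 0.21, SE). Those of Hoxd11 overlapped. Hoxc8 had 52 and 39 counts in Mettl3 cKO libraries, against 60 and 36 in Mettl3 control libraries. Hoxc6 had 59 and 43 counts in Mettl3 cKO libraries, against 41 and 39 in Mettl3 control libraries. The cKO libraries of Hoxc6 lay above those of its control, but the change of 0.44 ± 0.27 on the log2 scale was not called (SE, adjusted p = 0.260, edgeR). Hoxb8 had 14 and 16 counts in Mettl3 cKO libraries, against 10 and 14 in Mettl3 control libraries. Hoxd8 had 36 and 23 counts in Mettl3 cKO libraries, against 34 and 44 in Mettl3 control libraries. The libraries of Hoxb8 did not overlap in CPM, while those of Hoxc8 and Hoxd8 did. Hoxa3, Hoxa5, Hoxb4, Hoxb7, Hoxc12 and Hoxd12 had differences between -0.19 and 0.48 on the log2 scale, and none was called.

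**Figure D3:**
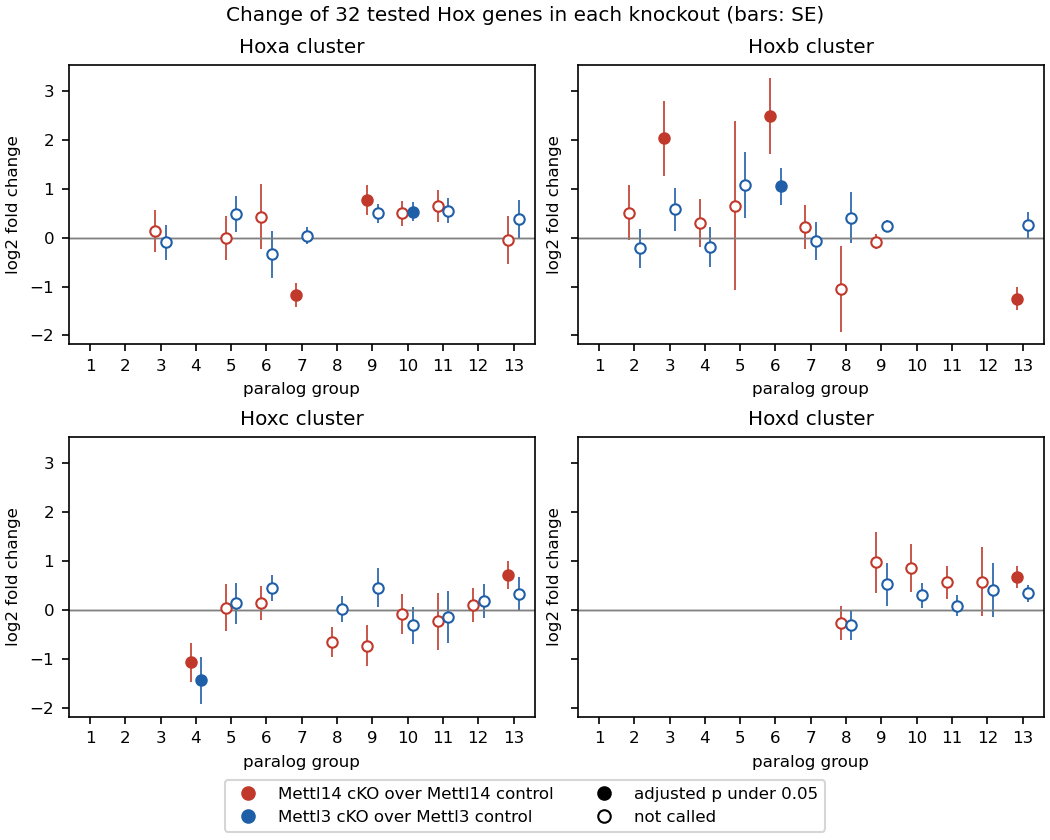
Log2 fold change (points, with SE as bars) of 32 of the 33 tested Hox genes by paralog group, 1 panel for each cluster, for Mettl14 cKO over Mettl14 control (red) and Mettl3 cKO over Mettl3 control (blue), filled where the adjusted p was under 0.05. Hoxa7 and Hoxb13 stand below 0 in red but not in blue, and Hoxc4 stands below 0 in both.

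The difference between the knockouts was tested as an interaction, the Mettl14 change minus the Mettl3 change. It was called below 0 for 2 Hox genes, 6.06% of the 33, and above 0 for none, with edgeR and with DESeq2. Over all genes 20.5% were called below and 12.7% above. Among genes of like abundance 4.10% were called below and 11.1% above. Without regard to the threshold, 18 Hox genes had a value above 0 and 15 below, and all 6 tested Hoxd genes were above 0. The median was 0.10 over the Hox genes and 0.39 over the 6 Hoxd genes. It was 0.02 over all genes and 0.30 over genes of like abundance, so scarce genes in general lay above 0 here. Over all genes upper-quartile scaling gave 4287 above 0 and 2788 below 0, against 2777 and 4461, while the Hox calls stayed at 0 above and 2 below. The genes were Hoxb13, at -1.50 ± 0.35 (SE, adjusted p = 0.00025, edgeR), and Hoxa7, at -1.22 ± 0.31 (SE, adjusted p = 0.00081, edgeR). In all, 3 Hox genes had an unadjusted p under 0.05, and the third was Hoxc9 (-1.18 ± 0.58, adjusted p = 0.107, edgeR). For Hoxb6, Hoxb3, Hoxd13, Hoxc13, Hoxa9 and Hoxc4, called in Mettl14 cKO, the interaction was not past the threshold, so no difference between the knockouts was shown for them. Hoxb6, for example, gave 1.43 ± 0.91, Hoxd13 0.34 ± 0.28 and Hoxc4 0.37 ± 0.63 (SE).

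More Hox genes were called between the controls of the 2 lines than in either knockout, and the same held over all genes. Between Mettl14 control and Mettl3 control, 14 Hox genes were lower in Mettl14 control and 1 was higher, 42.4% and 3.03% of the 33 tested. Over all genes 34.1% were lower and 33.6% higher, and among genes of like abundance 40.8% were lower and 13.9% higher. The share of Hox genes that were lower thus lay near that of genes as scarce as they are. The median log2 difference was -0.70 over the Hox genes, against -0.09 over all genes and -0.57 over those of like abundance. With upper-quartile scaling 17 Hox genes were lower and 1 higher, and over all genes 9450 lower and 5642 higher, against 7430 and 7329. The line, the culture and any other feature of the 2 controls cannot be told apart. This comparison shares its Mettl14 control libraries with the Mettl14 knockout comparison and its Mettl3 control libraries with the Mettl3 one. The fibroblast markers moved with it, 20 of 22 tested being lower and 1 higher in Mettl14 control. So did the odorant and vomeronasal receptor genes, which summed to 113 CPM in Mettl14 control and 404 CPM in Mettl3 control. Of these 1413 genes, 210 reached the minimum count, 172 being lower and 6 higher with a median of -2.38. In which group they reached it was not counted, so this count may lean toward genes higher in Mettl3 control. The pluripotent stem cell markers went the other way, with 19 of 20 higher and 1 lower in Mettl14 control. The part of these sets in the Hox differences was not tested.

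The lower genes were spread over 3 clusters. They were 5 of 9 tested in Hoxa, 5 of 9 in Hoxb and 4 of 6 in Hoxd. In Hoxc edgeR and DESeq2 called none of 9, and 1 had an unadjusted p under 0.05. Hoxd10, which directs motor neurons of the hind limb, had 6 and 7 counts in Mettl14 control libraries, against 54 and 46 in Mettl3 control libraries (-2.58 ± 0.39, SE, adjusted p = 4.3e-09, edgeR). Hoxd11, which with Hoxa11 shapes the forearm and kidney, had 21 and 14 counts in Mettl14 control libraries, against 70 and 92 in Mettl3 control libraries (-1.86 ± 0.28, SE, adjusted p = 3.7e-09, edgeR). Every Mettl14 control library lay below every Mettl3 control library for both genes. Hoxd13 differed by -1.06 ± 0.21 (SE, adjusted p = 4.9e-06, edgeR), and by -0.64 without Mettl14 control replicate 1. Hoxd9 had 6 and 3 counts in Mettl14 control libraries, against 22 and 10 in Mettl3 control libraries (-1.46 ± 0.59, SE, adjusted p = 0.0230, edgeR), and its call ended without Mettl14 control replicate 2 (-0.99, adjusted p = 0.209) or Mettl3 control replicate 1 (-0.78, adjusted p = 0.369). Outside this set, Hoxd8 and Hoxd12 were not called, and Hoxd1 measured 0.25 ± 0.18 CPM in Mettl14 control and 0.15 ± 0.07 CPM in Mettl3 control.

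In the Hoxa cluster the lower genes ran from Hoxa6 to Hoxa11. Hoxa9 had 17 and 20 counts in Mettl14 control libraries, against 74 and 86 in Mettl3 control libraries (-1.76 ± 0.27, SE, adjusted p = 4.3e-09, edgeR). Hoxa10 had 28 and 36 counts in Mettl14 control libraries, against 86 and 63 in Mettl3 control libraries (-0.87 ± 0.24, SE, adjusted p = 0.00099, edgeR). Hoxa11 had 17 and 19 counts in Mettl14 control libraries, against 47 and 44 in Mettl3 control libraries (-0.99 ± 0.31, SE, adjusted p = 0.0039, edgeR). These groups did not overlap. Hoxa7 (-0.60 ± 0.20, SE) and Hoxa6 (-1.40 ± 0.58, SE) were closer to the threshold, Hoxa6 with 5 and 5 counts in Mettl14 control libraries, against 22 and 12 in Mettl3 control libraries. Without Mettl14 control replicate 1 the calls of Hoxa10 (-0.66, adjusted p = 0.0536), Hoxa11 (-0.87, adjusted p = 0.0516), Hoxa7 (-0.35, adjusted p = 0.218) and Hoxa6 (-1.36, adjusted p = 0.106) ended. Without Mettl3 control replicate 1 those of Hoxa10 (-0.62, adjusted p = 0.0584), Hoxa7 (-0.36, adjusted p = 0.201) and Hoxa6 (-0.90, adjusted p = 0.306) ended, and without Mettl14 control replicate 2 that of Hoxa6 (-1.34, adjusted p = 0.110).

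In the Hoxb cluster the scarce genes were nearly uncounted in Mettl14 control. Hoxb6 had 1 and 2 counts in Mettl14 control libraries, against 12 and 25 in Mettl3 control libraries, a ratio of 0.103 with an interval of 0.0203 to 0.325. Hoxb3 had 3 and 1 counts in Mettl14 control libraries, against 16 and 16 in Mettl3 control libraries, a ratio of 0.159 (0.0408 to 0.448). Hoxb5, a gene of gut nerves and lung, had 0 and 1 counts in Mettl14 control libraries, against 6 and 5 in Mettl3 control libraries, a ratio of 0.116 (0.00268 to 0.795). The fitted log2 differences were -3.19 ± 0.70 for Hoxb6 (adjusted p = 3.3e-05), -2.59 ± 0.71 for Hoxb3 (adjusted p = 0.00075) and -2.87 ± 1.26 for Hoxb5 (adjusted p = 0.0379, edgeR, SE). The call of Hoxb5 ended on leaving out any 1 of the 8 libraries, with changes of -1.96 to -5.36 and adjusted p of 0.0626 to 0.269. Hoxb2, of the hindbrain and facial nerve, had 9 and 4 counts in Mettl14 control libraries, against 24 and 27 in Mettl3 control libraries (-1.61 ± 0.49, SE, adjusted p = 0.0025, edgeR), and its call ended without Mettl14 control replicate 2 (-1.09, adjusted p = 0.0939). Hoxa6, Hoxb2, Hoxb3, Hoxb5, Hoxb6 and Hoxd9, 6 of the 14 lower genes, reached the minimum count only in the Mettl3 line, so they could hardly have been tested without being higher there.

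Hoxb9 and Hoxb13, neighbours in the cluster, differed in opposite directions. Hoxb9 had 112 and 104 counts in Mettl14 control libraries, against 233 and 230 in Mettl3 control libraries (-0.75 ± 0.14, SE, adjusted p = 4.6e-07, edgeR). Hoxb13 had 88 and 81 counts in Mettl14 control libraries, against 37 and 39 in Mettl3 control libraries, and was the gene called higher in Mettl14 control (1.50 ± 0.23, SE, adjusted p = 1.1e-08, edgeR). The groups did not overlap in either gene. The Hoxc cluster held no call, and its sum was 11.5 and 12.7 CPM in Mettl14 control and 12.5 and 10.5 CPM in Mettl3 control, which overlapped. The Hoxd sum was 6.53 and 6.72 CPM in Mettl14 control and 15.7 and 16.0 CPM in Mettl3 control. Of the Hoxc genes, Hoxc6 came nearest, with 22 and 18 counts in Mettl14 control libraries, against 41 and 39 in Mettl3 control libraries (-0.65 ± 0.32, SE, adjusted p = 0.0627, edgeR). Hoxc8 and Hoxc12 had log2 differences of -0.07 ± 0.28 and 0.25 ± 0.36 (SE).

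**Figure D4:**
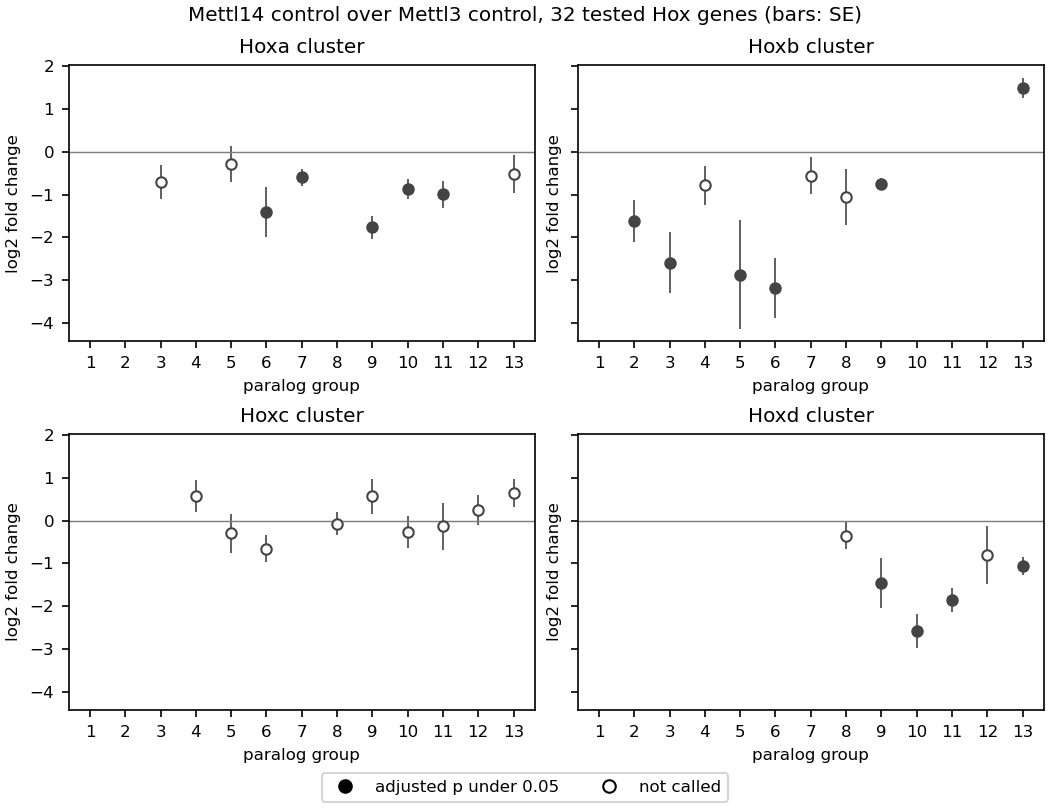
Log2 fold change (points, with SE as bars) of 32 of the 33 tested Hox genes between Mettl14 control and Mettl3 control by paralog group, 1 panel for each cluster, filled where the adjusted p was under 0.05. The filled points lie below 0 in the Hoxa, Hoxb and Hoxd panels, Hoxb13 lies above 0, and the Hoxc panel holds no filled point.

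Besides the coding genes, 46 other annotated genes lie inside the 4 clusters, most of them antisense or other noncoding RNAs, and 14 reached 10 counts in a library. The most abundant was Gm53, a long noncoding RNA (chr11:96251105-96264868, + strand) between Hoxb13 and Hoxb9. It had 459 and 455 counts in Mettl14 cKO libraries, against 432 and 398 in Mettl14 control libraries, and 699 and 729 in Mettl3 cKO libraries, against 874 and 841 in Mettl3 control libraries. It was not called in Mettl14 cKO (-0.10 ± 0.08, SE), just missed the call in Mettl3 cKO (-0.17 ± 0.07, SE, adjusted p = 0.0509, edgeR), and was lower in Mettl14 control than in Mettl3 control (-0.70 ± 0.07, SE, adjusted p = 2.4e-16, edgeR). Mir196a-1, the hairpin gene of miR-196a whose sequence is given above, begins 295 bases past the end of Gm53 on the same strand. It had 14 and 19 counts in Mettl14 cKO libraries, against 27 and 24 in Mettl14 control libraries, and 38 and 40 in Mettl3 cKO libraries, against 70 and 46 in Mettl3 control libraries. It fell in Mettl14 cKO (-0.86 ± 0.36, SE, adjusted p = 0.0438, edgeR) and was lower in Mettl14 control than in Mettl3 control (-0.84 ± 0.29, SE, adjusted p = 0.0077, edgeR). Reads over the hairpin do not measure the mature microRNA. Mir196b, Mir10a and Mir615 were at 0 in all libraries, though all 85 bases of Mir196b also lie in Hoxa9 exons on the same strand, so that its reads may have been set aside as ambiguous, and Mir196a-2 had 1 count in 1 library.

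Among the others, Gm27535, a short RNA gene near Hoxc11, had 2 and 3 counts in Mettl14 cKO libraries, against 11 and 10 in Mettl14 control libraries, and fell by 2.25 ± 0.75 (SE, adjusted p = 0.0100, edgeR). Hoxaas2 and Hoxa11os, antisense RNAs of the Hoxa cluster, were lower in Mettl14 control than in Mettl3 control, by log2 differences of -1.52 ± 0.44 and -2.41 ± 0.67 (SE, adjusted p = 0.0016 and 0.0010, edgeR). Hoxa11os overlaps 35.0% of the Hoxa11 exon bases, and as the strand setting of the counting is not given, reads of the pair may have been shared or set aside. Hotairm1 and 9530018H14Rik were tested and not called in any comparison. Hotair, Haglr, Hoxaas3, Hoxb3os, Hoxd3os1, Gm27337 and 5730596B20Rik had 10 to 18 counts in their highest library and were not tested.

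The genes that flank the clusters differed among themselves. Skap2, at the 3′ end of Hoxa, had a log2 fold change of -0.52 ± 0.06 in Mettl14 cKO (SE, adjusted p = 2.6e-15, edgeR) and was higher in Mettl14 control than in Mettl3 control (1.48 ± 0.06, SE). Evx1, a homeobox gene beyond Hoxa13 that descends from the same ancestral cluster, had 44 and 33 counts in Mettl3 cKO libraries, against 24 and 15 in Mettl3 control libraries, and rose by 1.07 ± 0.34 (SE, adjusted p = 0.0143, edgeR). Ttll6, beyond Hoxb13, had 152 and 145 counts in Mettl14 cKO libraries, against 235 and 228 in Mettl14 control libraries, and fell by 0.88 ± 0.12 (SE, adjusted p = 3.7e-10, edgeR). Like Hoxb13, it was lower in both Mettl14 cKO libraries, and its interaction was -0.70 ± 0.16 (SE, adjusted p = 0.00022, edgeR). Between the controls Ttll6 was not called (-0.03 ± 0.11, SE), while Hoxb13 was higher in Mettl14 control (1.50 ± 0.23, SE). Of all genes tested, 22.4% were lower in Mettl14 cKO. Skap1, at the other end of Hoxb, was lower in Mettl14 control than in Mettl3 control (-2.35 ± 0.63, SE). Calcoco1, Smug1 and Mtx2 were higher in Mettl14 control than in Mettl3 control, by 0.20 ± 0.08, 0.81 ± 0.13 and 0.92 ± 0.10 (SE), and were not called in either knockout, and Evx2 was too scarce to test.

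Genes that work with or on the clusters were counted by list. Most of the chromatin genes and cofactors are more abundant than the Hox genes. Of the 9452 tested genes above the Hox range of abundance, 42.3% were lower and 25.7% higher in Mettl14 cKO, and 7.33% lower and 30.7% higher in Mettl3 cKO, while the shares over all genes and over genes of like abundance are given above. Of 32 Polycomb genes, which keep Hox clusters silent, 2 were higher and 16 lower in Mettl14 cKO, among them Ezh2, the H3K27 methyltransferase (-0.97 ± 0.04, SE), and Epop, a PRC2 partner (-1.0 ± 0.05, SE), with a list median of -0.31 against 0.03 over all genes. In Mettl3 cKO 10 were higher and 4 lower, with Epop at 0.53 ± 0.05 and Phc3, a PRC1 subunit, at 0.34 ± 0.05 (SE), and a list median of 0.09. Of 19 Trithorax genes and H3K27 demethylases, which oppose Polycomb, 1 was higher and 14 lower in Mettl14 cKO, with Psip1 at -1.12 ± 0.03 (SE) among them. In Mettl3 cKO 8 were higher and 4 lower, with the H3K4 methyltransferase Kmt2d at 0.31 ± 0.03 (SE) among them. In Mettl14 cKO 50% of the Polycomb list and 73.7% of the Trithorax list were thus lower, and abundant genes in general had more lower than higher calls too. In Mettl3 cKO the scaling matters for such counts, as the median of all genes shifts by -0.11 with upper-quartile scaling.

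Hox proteins bind DNA together with cofactors of the TALE class. Of 9 such genes, 8 of them above the Hox range of abundance, 6 were lower in Mettl14 cKO, with Meis2 at -0.52 ± 0.08 and Pbx4 at -0.76 ± 0.13 (SE), and 1 was higher and 1 lower in Mettl3 cKO, Meis3 at 0.54 ± 0.20 and Meis1 at -0.45 ± 0.12 (SE). The list median was -0.28 in Mettl14 cKO and -0.03 in Mettl3 cKO. Of 13 Evx, ParaHox and related homeobox genes, 9 were tested, 7 of them within that range, and Gbx2, of the midbrain border, was the 1 called in Mettl14 cKO (0.29 ± 0.11, SE). In Mettl3 cKO 2 were called, both higher: Evx1 as above and Cdx1, an activator of Hox genes in the embryo, at 0.45 ± 0.10 (SE). Of 18 tested genes of retinoic acid synthesis, breakdown and reception, 12 of them within the Hox range of abundance, 3 were higher and 4 lower in Mettl14 cKO, with Dhrs3, which lowers retinal, at 0.92 ± 0.16 and the receptor Rara at -0.47 ± 0.10 (SE). In Mettl3 cKO 4 were higher and 1 lower, with the receptors Rarg at 0.25 ± 0.07 and Rxra at 0.31 ± 0.10 (SE).

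Markers of cell types that could bring Hox RNA were counted the same way. In Mettl14 cKO, 12.2% of genes within the Hox range of abundance were higher and 7.20% lower, and above it 25.7% and 42.3%. In Mettl3 cKO these shares were 3.15% and 4.42% within that range, and 30.7% and 7.33% above it. Over all genes they were 18.0% and 22.4% in Mettl14 cKO, and 15.1% and 5.78% in Mettl3 cKO. Of the tested markers, 19 of 20 for pluripotent stem cells and 17 of 22 for fibroblasts lay above the Hox range of abundance, and 10 of 11 for primitive endoderm, 11 of 12 for mesoderm and tailbud and 9 of 13 for neural cells lay within it. Pluripotent stem cell markers summed to 4480 and 4472 CPM in Mettl14 cKO and 6256 and 6243 CPM in Mettl14 control, with 1 of 20 higher and 17 lower, Pou5f1 at -1.22 ± 0.03 and Klf4 at -1.45 ± 0.04 (SE). They summed to 2550 and 2528 CPM in Mettl3 cKO and 2666 and 2649 CPM in Mettl3 control, with 3 higher and 8 lower. Of the fibroblast markers, Col1a2 and Col5a2, both fibrillar collagens, rose by 1.54 ± 0.03 and 1.37 ± 0.03 in Mettl14 cKO (SE), and Fbln2 and Col1a1 by 0.34 ± 0.02 and 0.28 ± 0.02 in Mettl3 cKO (SE). No fibroblast marker was at 0 in all libraries, and Tcf21 had at most 3 counts in any. Primitive endoderm markers had 3 of 11 tested higher in Mettl14 cKO, led by Cubn and Amn, and 1 higher, Dab2, in Mettl3 cKO. Mesoderm and tailbud markers, the cells in which Hox genes first come on in the embryo, had 1 higher and 2 lower of 12 tested in Mettl14 cKO, with Nkx1-2 at -1.19 ± 0.14 and Eomes at -0.34 ± 0.10 (SE), and 3 higher in Mettl3 cKO, Eomes at 0.39 ± 0.12 and Wnt3 at 0.66 ± 0.21 (SE) among them. Neural markers had 1 higher and 5 lower of 13 tested in Mettl14 cKO, with Olig2 at -1.04 ± 0.12 and Sox1 at -0.56 ± 0.08 (SE), and 3 lower in Mettl3 cKO, Neurog1 and Otx2 among them. As shares, 27.3% of the tested primitive endoderm markers were higher and 0% lower in Mettl14 cKO. For mesoderm and tailbud markers these shares were 8.33% and 16.7%, and for neural markers 7.69% and 38.5%. In Mettl3 cKO they were 9.09% and 0%, 25% and 0%, and 0% and 23.1%, in the same order. The part of any of these cell types in the Hox values was not tested.

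**Figure D5:**
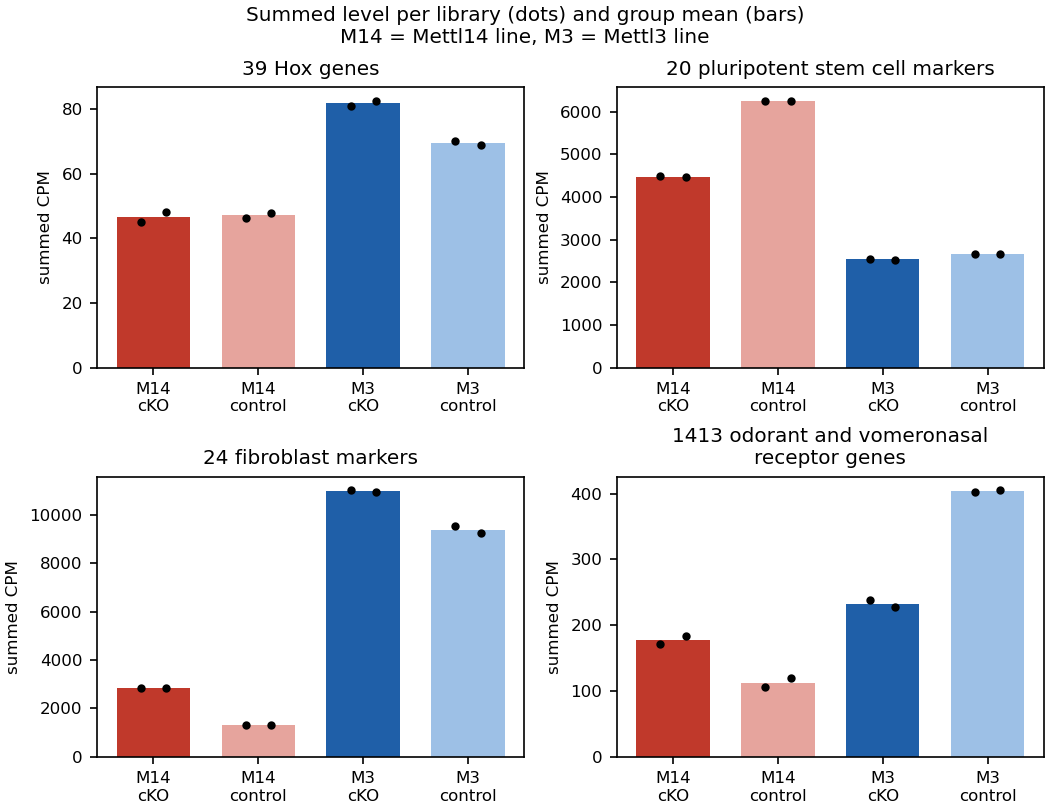
Summed CPM per library (dots) and group mean (bars from 0) of the 39 Hox genes, 20 pluripotent stem cell markers, 24 fibroblast markers and 1413 odorant and vomeronasal receptor genes, cKO left of its control in each line. The Hox, fibroblast and receptor sums are all higher in the Mettl3 line than in the Mettl14 line, and the Hox sums of Mettl14 cKO (44.9 and 48.2) and Mettl14 control (46.4 and 47.7) overlap.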

How the data were processed

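The authors deposited raw counts of reads per gene for 8 libraries. Per the labels' protocols, ribosomal RNA was removed from nuclear RNA with RiboMinus, and a stranded total RNA kit (SMARTer v2) was used. The submitters' processing notes name CASAVA, Trimmomatic 0.38, HISAT2 2.1.0, HTSeq and mm10. Neither the annotation release nor the strand setting of HTSeq is known here, and overlapping genes can share or lose reads: 16 of the 39 Hox genes share exon bases with another gene. Gene IDs were matched to GENCODE M21, 54409 of 54446.

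Genes were kept with filterByExpr at a minimum count of 10, then scaled by TMM and fitted with edgeR 4.0.16 in R 4.3.3 (robust glmQLFit and glmQLFTest, 1 fit of 8 libraries, 4 residual degrees of freedom), and p-values were adjusted by Benjamini-Hochberg over 21782 genes. Errors of log2 fold changes are standard errors. Replicates differed by more than sampling noise, with a chi-square per degree of freedom of 1.41 to 1.97. The fit was tested on simulated counts. Alternatives were RLE and upper-quartile scaling, no low-count filter, a minimum count of 30, DESeq2 1.42.0, only the libraries compared, a replicate block and leaving out each library. Ratios of scarce genes carry exact intervals for counting error.

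Called Hox genes and, in each cluster, the 3 most abundant of those called in no comparison are named, as are up to 2 called genes with the smallest p of each list, except that 2 genes are not reported here, though they remain in counts and sums. The Hox genes and the lists were chosen with earlier results of these data known.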

Additional observations from a re-analysis of the deposited data

Results flagged for a closer look

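The Mettl14 change and the Mettl3 change differed in 2 Hox genes by the interaction test itself. For Hoxb13 the difference of the changes was -1.50 on the log2 scale, with 30 and 54 counts in Mettl14 cKO libraries and 88 and 81 in Mettl14 control libraries, and 42 and 43 counts in Mettl3 cKO libraries and 37 and 39 in Mettl3 control libraries. For Hoxa7 it was -1.22, with 30 and 30 counts in Mettl14 cKO libraries and 49 and 66 in Mettl14 control libraries, and 96 and 117 counts in Mettl3 cKO libraries and 127 and 94 in Mettl3 control libraries. Both held in the 14 alternatives run for the interaction.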

How the results depend on the processing

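In Mettl14 cKO, 3 Hox genes were called higher without the low-count filter, 3 with only the libraries compared and 1 with DESeq2, against 5, and leaving out 1 library gave 1 to 5 higher and 2 to 3 lower. In Mettl3 cKO, 1 was higher with RLE scaling, 0 with upper-quartile scaling, 5 with no filter, 1 with a minimum count of 30, 1 with only the libraries compared and 0 with DESeq2, against 2, and 0 were lower with a minimum count of 30 and with DESeq2, against 1; leaving out 1 library gave 0 to 3 higher and 0 to 1 lower. The interaction kept 0 higher and gave 2 to 3 lower. Between the controls, leaving out 1 library gave 1 to 2 higher and 9 to 13 lower, and 10 were lower without the filter, with a minimum count of 30 and with DESeq2. The summed Hox level had a log2 ratio of 0.24 in Mettl3 cKO (0.12 with upper-quartile scaling) and -0.56 between the controls (-0.78). Upper-quartile scaling moved the median of all genes by -0.11 in Mettl3 cKO, 0.16 in the interaction and -0.22 between the controls.

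The main fit did not pair libraries by replicate number. Deviations of same-numbered libraries correlated at r of -0.03 to 0.11 between groups, which cannot show whether they were prepared together. With the replicate block, 5 Hox genes were higher and 3 lower in Mettl14 cKO, 3 and 1 in Mettl3 cKO, 0 and 2 in the interaction and 1 and 14 between the controls. No called Hox gene changed direction in any alternative. Most calls rest on fewer than 100 counts per library.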
